A study of Mus musculus with 16 samples.

Results

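The mitochondrial carriers of the SLC25 family are the subject here, taken as every gene of the count table whose symbol begins with Slc25a. There were 47 such genes among 24421 entries of the table, and 39 of them had enough counts to be among the 13522 genes tested. Each SLC25 carrier is a small protein of the mitochondrial inner membrane, with rare exceptions in other membranes, that exchanges or admits one class of solute. Together they bring ADP, phosphate, fatty acyl groups, amino acids, coenzymes and iron into the matrix and let ATP and intermediates out. In heart muscle, which makes most of its ATP by oxidative phosphorylation, the ADP/ATP carrier is among the most abundant proteins of the inner membrane. Members of the same protein family that bear other symbols (Ucp1, Ucp2, Ucp3, Mtch1 and Mtch2) were kept apart and are given near the end.

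The study sequenced polyadenylated RNA of mouse ventricles in 16 libraries, 4 in each of 4 groups. WT sham and WT TAC mice were wildtype, and JP2CR sham and JP2CR TAC mice were homozygous for JP2CR, an allele of Jph2 that lacks codons 563 to 568. Jph2 encodes junctophilin-2, which keeps the transverse tubules of the heart muscle cell close to its sarcoplasmic reticulum, and the allele was made to resist cleavage by the protease calpain. Control (sham) surgery was done at 9 to 10 weeks of age, as was transverse aortic constriction (TAC), a narrowing of the aorta that loads the left ventricle with pressure, and tissue was taken 5 weeks later. All mice are labelled C57BL/6N and male, and the deletion is in every cell of the JP2CR mice, not only in heart muscle. The questions put by the design are how the carriers respond to pressure overload, and whether that response depends on calpain-resistant junctophilin-2. Which mouse gave which library is not in the labels, so a p-value below measures the spread between libraries.

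Total counts per library ran from 9966782 to 16609732. Ventricular muscle markers (Myl2, Myl3, Tnni3, Myh6, Actc1 and Tnnt2) summed to 55000 to 92300 CPM in every library, where CPM relates a count to the library total after scaling. Markers of other tissue varied: atrial muscle markers summed to 183 to 7540 CPM and adipocyte markers to 348 to 720 CPM. After TAC in WT, 8 of 9 adipocyte markers and 6 of 7 atrial markers were lower and 1 atrial marker was higher. The atrial sum was nonetheless 3050 to 4590 CPM in WT sham and 3910 to 7540 CPM in WT TAC. Such sums follow the most abundant markers, not most of the list. In JP2CR 0 of 9 and 2 of 7 were lower. Over all genes tested, 20.8% were lower and 21.1% higher in WT, and 20.7% lower and 20.7% higher in JP2CR. Macrophage markers were higher, 4 of 5 in each genotype (149 to 170 CPM summed in WT sham, 209 to 213 in WT TAC, 148 to 188 in JP2CR sham and 208 to 243 in JP2CR TAC). Of 3 tested Schwann cell markers 3 were lower in WT and 2 in JP2CR (13.8 to 18.8, 6.2 to 8.19, 11.5 to 19.2 and 7.65 to 9.02 CPM summed in the same order). The part of these cells in the carrier results was not tested. In 3 libraries labelled male (JP2CR sham 3 and 4 and JP2CR TAC 4) Xist, the transcript of the inactive X chromosome, stood at 141 to 196 CPM, against at most 0.266 CPM in the others. Y-linked genes had 0 counts in JP2CR sham 3 and 4 and 118 CPM beside Xist in JP2CR TAC 4, against 179 to 237 CPM in the others. These 3 libraries thus go against the label male, JP2CR TAC 4 in part, and whether labels or RNA were mixed was not tested. The third WT TAC library lay between the first and second for 94.7% of the 1037 genes that differed between those, and the third JP2CR TAC library did so for 94.8% of 984. The shares were 92% and 91% for WT sham 3 and 4, over only 300 genes, and 86.5% for WT TAC 4, and these were left out only one at a time. Counts over all members were also made without the 3 libraries with Xist, without the third library of each TAC group, and without all 5. In bulk tissue, fewer cells of a type and less RNA per cell cannot be told apart.

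About as many carriers were lower after TAC in one genotype as in the other. In WT hearts 18 of the 39 tested carriers were lower after TAC and 3 were higher (edgeR, adjusted p under 0.05), where 20.8% of all 13522 genes tested were lower and 21.1% higher. In JP2CR hearts 18 carriers were lower and 4 higher, where 20.7% of all genes were lower and 20.7% higher. The median log2 fold change of the carriers was -0.203 in WT and -0.147 in JP2CR, beside -0.000942 and -0.00421 over all genes tested. All 4 TAC libraries lay below all 4 sham libraries for 19 carriers in WT (background 21.0%) and for 17 in JP2CR (background 17.3%), and above them for 3 (background 21.0%) and 1 (background 16.8%). Among the 15 carriers that fell in both genotypes were Slc25a3, Slc25a4, Slc25a11, Slc25a12, Slc25a15, Slc25a20, Slc25a22, Slc25a26, Slc25a29, Slc25a34, Slc25a35, Slc25a39, Slc25a42 and Slc25a51. Slc25a32 and Slc25a36 rose in both.

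Without the 3 libraries with Xist the counts were 21 lower and 3 higher in WT, where 23.0% of all genes were lower and 22.8% higher, and 15 and 4 in JP2CR (17.4% and 18.5%). Without the 2 intermediate TAC libraries they were 16 lower and 1 higher in WT (17.7% and 18.1% of all genes) and 18 and 2 in JP2CR (17% and 17.1%). Without all 5 they were 20 lower and 2 higher in WT (19.5% and 20.2%) and 14 and 2 in JP2CR (13.9% and 14.8%). With marker means of fat and atrium as covariates, the fit called 9 carriers lower and 1 higher in WT, where 10.6% of all genes were then lower and 10.7% higher. In JP2CR the same fit called 18 lower and 3 higher, where 21.5% and 22.2% of all genes were. The marker means, taken on log2 CPM, did not overlap between WT sham and WT TAC. For fat they ran from 1.85 to 4.38 and from -1.06 to 0.513, and for atrium from 6.55 to 8.19 and from 3.69 to 5.25. In WT this fit therefore cannot tell a change in these markers from TAC. Over 29 alternative settings, 7 carriers remained lower in WT in every one (Slc25a3, Slc25a12, Slc25a20, Slc25a22, Slc25a26, Slc25a34 and Slc25a42). In JP2CR the same 7 and a further 7 did so.

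Other calls ended in the fits on fewer libraries. Without the 3 libraries with Xist, 15 of the 18 lower calls in JP2CR were kept. Among those lost were Slc25a4 (adjusted p = 0.0684) and Slc25a47 (0.324). The higher call of Slc25a36 in JP2CR (log2 fold change 0.20, adjusted p = 0.216) and the WT call of Slc25a40 (adjusted p = 0.0503) were lost too. Slc25a37 became called lower in WT (-0.20, adjusted p = 0.00924). Without the third library of each TAC group, the WT calls of Slc25a4 (adjusted p = 0.0777), Slc25a28 (0.0713), Slc25a32 (0.0568) and Slc25a40 (0.0905) were lost. In JP2CR those of Slc25a36 (adjusted p = 0.0827), Slc25a24 (0.123) and Slc25a45 (0.0684) were. Slc25a45 also lost its JP2CR call with the marker covariates (adjusted p = 0.0549).

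**Figure D1:**
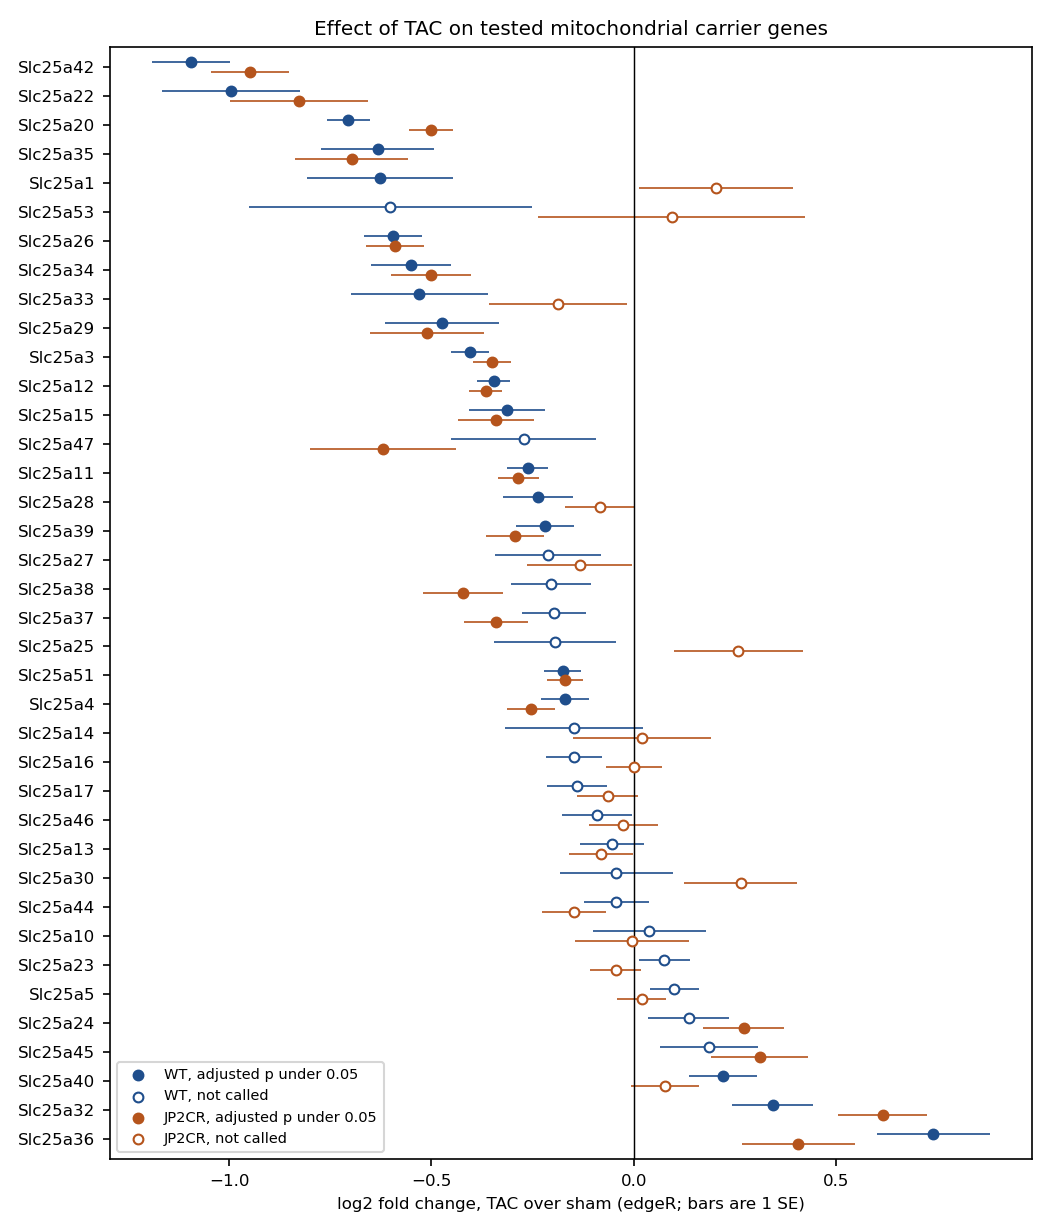
Log2 fold change of TAC over sham for tested carriers, with WT in blue and JP2CR in orange and bars of 1 SE from edgeR. Filled points have an adjusted p under 0.05. Slc25a42 has the lowest estimate in both genotypes (-1.09 and -0.95), and Slc25a1 is the carrier whose 2 estimates are farthest apart (-0.63 and 0.20).

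Levels were compared between genes only per kilobase of exon. The length taken was that of all annotated exons of a gene together, whichever of them the heart expresses. It was 2.35 kb for Slc25a4, 5.55 kb for Slc25a3 and 2.12 kb for Slc25a11. The order of the carriers and their shares depend on this choice, which the SD does not cover. Slc25a4, the ADP/ATP carrier typical of heart and skeletal muscle, led the family with 2330 ± 86.5 CPM per kb in WT sham hearts (SD, n = 4). It held 63.5% ± 0.797 (SD, n = 4) of the summed per-kilobase level of all carriers there and 65.2% ± 0.59 after TAC in WT, and in JP2CR 64.2% ± 0.684 after sham and 64.4% ± 1.38 after TAC. Slc25a3 and Slc25a11 came next at 329 ± 10.6 and 324 ± 6.55 CPM per kb in WT sham (SD, n = 4), which do not differ beyond their spread between libraries. Before division by length their means there were 1820 and 686 CPM. Slc25a5 followed at 165 ± 2.68 and Slc25a34 at 110 ± 5.85 CPM per kb. Slc25a20 (56.1 ± 2.13), Slc25a13 (50.7 ± 6.74) and Slc25a39 (48.6 ± 5.13) overlapped one another, and Slc25a12 followed at 41.4 ± 1.06 CPM per kb, also overlapping Slc25a39. All the others were below 25 CPM per kb in WT sham.

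**Figure D2:**
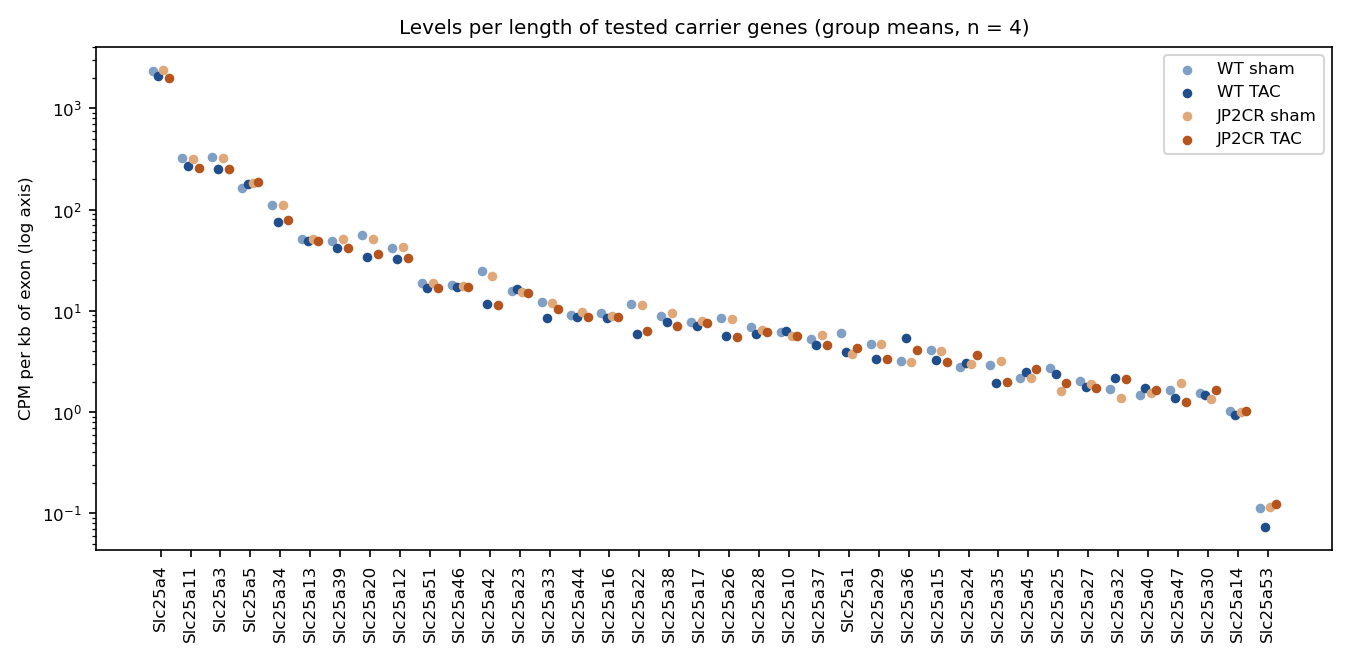
Mean level per kilobase of exon (CPM per kb, log axis) of tested carriers in each group of 4 libraries, ordered by the mean over all libraries. Slc25a4, at 2330 CPM per kb in WT sham, stands above Slc25a11 and Slc25a3, at 324 and 329.

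Of the 3 tested carriers of ADP, ATP and phosphate, which serve ATP synthesis itself, 2 fell in each genotype. Over all genes tested, 20.8% fell in WT and 20.7% in JP2CR. Slc25a4 lies on chromosome 8 (GRCm38, 46206797 to 46211284, minus strand). Its transcript stood at 5330, 5680, 5290 and 5640 CPM in the WT sham libraries and at 5210, 4510, 4840 and 4950 CPM in WT TAC. The JP2CR libraries had 5420, 5350, 5810 and 6020 CPM after sham and 5210, 4420, 4820 and 4490 CPM after TAC. No TAC library reached the lowest sham library of its genotype. The log2 fold change was -0.17 ± 0.059 (SE, edgeR adjusted p = 0.0269) in WT and -0.25 ± 0.059 (adjusted p = 0.00214) in JP2CR. The WT call was lost when WT sham 2 or 4 or WT TAC 2 or 3 was left out (adjusted p 0.0609 to 0.0944), without the 2 intermediate TAC libraries (0.0777) and with the marker covariates (log2 fold change -0.11, adjusted p = 0.447). The JP2CR call was lost without the 3 libraries with Xist (log2 fold change -0.16, adjusted p = 0.0684).

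Slc25a3, the phosphate carrier (chromosome 10, 91116574 to 91124059, minus strand), stood at 1910, 1770, 1820 and 1800 CPM in WT sham and 1450, 1310, 1360 and 1390 CPM in WT TAC. It stood at 1770, 1740, 1760 and 1830 CPM in JP2CR sham and 1500, 1300, 1380 and 1390 CPM in JP2CR TAC. Sham and TAC libraries were apart in both genotypes. Slc25a3 fell by 24.4% in WT (log2 fold change -0.40 ± 0.047, adjusted p = 2.6e-06) and by 21.6% in JP2CR (-0.35 ± 0.047, adjusted p = 1.51e-05).

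Slc25a5, the ADP/ATP carrier that most tissues share (X chromosome, 36795651 to 36798807, plus strand), was not called. It stood at 275, 266, 270 and 276 CPM in WT sham and at 295, 284, 298 and 289 CPM in WT TAC, a log2 difference of 0.10 ± 0.06 (adjusted p = 0.193) with no overlap of the libraries. In JP2CR the sham libraries had 279, 272, 326 and 332 CPM and the TAC libraries 327, 306, 304 and 288 CPM. The highest sham values were those of the 2 JP2CR sham libraries with Xist. JP2CR TAC 4, which also had Xist, was the lowest of its group at 288 CPM. Whether the X-linked position bears on these values was not tested. Slc25a31, the ADP/ATP carrier of the testis, had at most 16 counts in a library and was not tested.

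The ratio of Slc25a5 to Slc25a4 counts within a library does not depend on scaling. It was 4.69 to 5.16% in WT sham and 5.66 to 6.3% in WT TAC, and 5.1 to 5.61% in JP2CR sham and 6.26 to 6.94% in JP2CR TAC. Every TAC library was above every sham library of its genotype, by a mean of 0.271 in log2 in WT and 0.28 in JP2CR. With 4 against 4 libraries the two-sided exact permutation test gave p = 0.0286 in each, the smallest that it can give, and 0.0572 after Benjamini-Hochberg adjustment over 12 ratios. The ratio therefore missed a threshold of 0.05 once adjusted.

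Of the dicarboxylate and tricarboxylate carriers, Slc25a11, which exchanges oxoglutarate for malate in the malate-aspartate shuttle, fell in both genotypes. It stood at 685, 682, 672 and 705 CPM in WT sham and 620, 527, 569 and 572 CPM in WT TAC. The JP2CR values were 686, 681, 639 and 676 CPM after sham and 584, 514, 550 and 554 CPM after TAC. The groups did not overlap, and the log2 fold changes were -0.26 ± 0.051 (adjusted p = 0.000455) in WT and -0.29 ± 0.051 (adjusted p = 0.000246) in JP2CR. With the marker covariates the WT estimate was -0.24 (adjusted p = 0.0561). Slc25a11 overlaps Rnf167 on the opposite strand (chromosome 11, 70644196 to 70647479), and the reads of the pair could be mixed if they were counted without strand. Slc25a10, the dicarboxylate carrier, had log2 differences of 0.039 ± 0.14 (adjusted p = 0.848) and -0.004 ± 0.14 (adjusted p = 0.986).

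Slc25a1, which exports citrate for fatty acid synthesis in the cytosol, was lower after TAC in WT and not in JP2CR. It stood at 7.72, 17.8, 12.9 and 14.1 CPM in WT sham and 9.45, 7.5, 8.88 and 8.43 CPM in WT TAC. JP2CR sham libraries had 8.98, 9.15, 7.89 and 6.38 CPM and JP2CR TAC libraries 9.95, 8.15, 9.19 and 10.2 CPM. Only 3 WT sham libraries stood above all the rest. The log2 fold change was -0.63 ± 0.18 (adjusted p = 0.01) in WT and 0.20 ± 0.19 (adjusted p = 0.411) in JP2CR, and the test of their difference gave 0.83 ± 0.26 (adjusted p = 0.229). The WT call was lost without WT sham 2, its highest library (log2 fold change -0.44, adjusted p = 0.0555).

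Markers of fat followed the order of Slc25a1 in WT sham libraries and not in JP2CR sham libraries. Adiponectin (Adipoq) stood at 1.26, 14.0, 7.74 and 8.8 CPM in the WT sham libraries, in the same order as Slc25a1, and at 0 to 0.642 CPM in WT TAC, with 2 libraries at 0. The 9 adipocyte markers summed to 396 to 641 CPM in WT sham, 348 to 420 in WT TAC, 348 to 720 in JP2CR sham and 472 to 607 in JP2CR TAC. The sum follows the most abundant markers. Plin1, another of the 9, stood at 1.85 to 18.1 CPM in WT sham and 0.0664 to 0.0838 CPM in WT TAC. With marker means of fat and atrium as covariates the WT estimate for Slc25a1 was -0.0048 (adjusted p = 0.993). As these means did not overlap between WT sham and WT TAC, this fit cannot tell fat from TAC in WT. In the JP2CR sham libraries Adipoq was at 1.21, 0.458, 14.7 and 0.314 CPM, and Slc25a1 at 8.98, 9.15, 7.89 and 6.38 CPM. The part of fat in the Slc25a1 values was not tested.

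**Figure D3:**
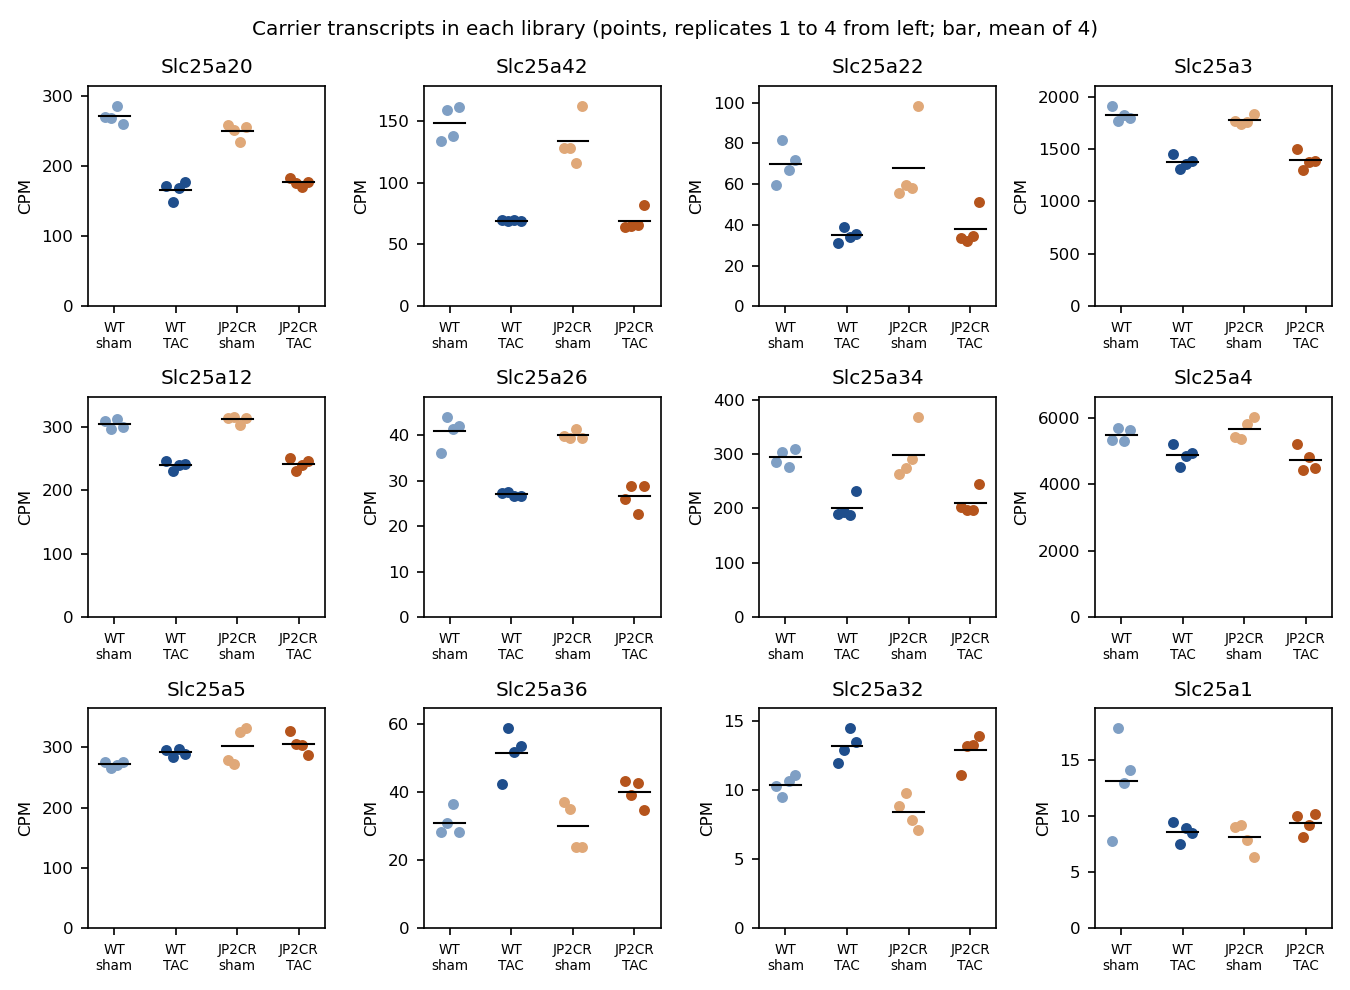
Level of 12 carriers in each library (CPM, linear axes from 0), with points for replicates 1 to 4 from left to right in each group and a bar at the mean of 4. For Slc25a20, Slc25a42, Slc25a3, Slc25a12 and Slc25a26 every TAC library lies below every sham library of its genotype, while Slc25a5 shows no call in either.

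Of 7 tested amino acid carriers, 4 fell in WT and 5 in JP2CR, where 20.8% and 20.7% of all genes fell. Slc25a12 and Slc25a13 encode the aspartate-glutamate carriers, which work with Slc25a11 in the malate-aspartate shuttle and are stimulated by calcium. Slc25a12, the form typical of heart, brain and muscle (chromosome 2, 71271063 to 71367749), stood at 309, 296, 312 and 299 CPM in WT sham and 246, 230, 240 and 241 CPM in WT TAC. The values were 314, 315, 303 and 314 CPM in JP2CR sham and 250, 230, 240 and 246 CPM in JP2CR TAC. The gap between the groups was wider than the range within any of them. Slc25a12 fell by 21.3% in WT (log2 fold change -0.35 ± 0.041, adjusted p = 3.54e-06) and by 22.4% in JP2CR (-0.37 ± 0.041, adjusted p = 2.73e-06).

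Slc25a13, the form typical of liver, was not called, with log2 differences of -0.053 ± 0.079 (adjusted p = 0.622) in WT and -0.082 ± 0.079 (adjusted p = 0.434) in JP2CR. With the marker covariates the WT estimate was -0.33 (adjusted p = 0.0223). Its libraries ran from 165 to 225 CPM in WT sham and from 176 to 195 CPM in WT TAC. The count of Slc25a13 was 55.8 to 72.9% of that of Slc25a12 in WT sham and 72.9 to 81.0% in WT TAC, a mean shift of 0.30 in log2 (exact permutation p = 0.0286, adjusted 0.0572). In JP2CR it was 59.8 to 67.1% and 67.1 to 86.2%, a mean shift of 0.283 (exact permutation p = 0.0571, adjusted 0.0979).

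Slc25a22, a glutamate carrier (chromosome 7, 141429744 to 141437892), had the second lowest estimate in both genotypes. It stood at 59.4, 81.5, 66.7 and 71.9 CPM in WT sham and 31.3, 39, 34.2 and 35.7 CPM in WT TAC. JP2CR sham libraries had 55.6, 59.5, 58.3 and 98.3 CPM and JP2CR TAC libraries 33.7, 32.3, 34.7 and 51.1 CPM. The fourth library stood high in both JP2CR groups, and all TAC libraries remained below their sham libraries. Slc25a22 fell by 49.9% in WT (log2 fold change -1.0 ± 0.17, adjusted p = 0.000156) and by 43.7% in JP2CR (-0.83 ± 0.17, adjusted p = 0.000891).

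The ornithine carrier Slc25a15 and the basic amino acid carrier Slc25a29 fell in both genotypes, with log2 fold changes of -0.31 and -0.34 for the first and -0.47 and -0.51 for the second (adjusted p 0.00639 to 0.0118). In neither genotype did Slc25a15 or Slc25a29 keep its call in all 29 alternative settings. Slc25a38, which supplies glycine for heme synthesis, fell in JP2CR (-0.42 ± 0.099, adjusted p = 0.0025) and had -0.20 ± 0.099 in WT (adjusted p = 0.109). The 2 effects on Slc25a38 were not shown to differ (difference -0.22 ± 0.14, adjusted p = 0.641). Slc25a44, a carrier of branched-chain amino acids, was not called in either. Slc25a2 and Slc25a18 had at most 3 and 10 counts in a library and were not tested.

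Slc25a20, the carnitine-acylcarnitine carrier that admits long-chain fatty acyl groups for beta-oxidation (chromosome 9, 108662088 to 108684641, plus strand), had the smallest p of the family in WT. It stood at 271, 269, 286 and 261 CPM in WT sham and 172, 149, 169 and 177 CPM in WT TAC. The JP2CR values were 259, 252, 234 and 256 CPM after sham and 183, 176, 171 and 178 CPM after TAC. The highest TAC library, at 183 CPM, was well below the lowest sham library, at 234 CPM. Slc25a20 fell by 38.7% in WT (log2 fold change -0.71 ± 0.054, adjusted p = 3.24e-08) and by 29.3% in JP2CR (-0.50 ± 0.054, adjusted p = 1.82e-06). The difference of the effects was 0.20 ± 0.077 (unadjusted p = 0.0158, adjusted p = 0.333).

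The carriers of nucleotides, coenzymes and glutathione moved both ways. Of 11 tested, 6 fell and 3 rose in WT, where 20.8% of all genes fell and 21.1% rose. In JP2CR 5 fell and 2 rose, where 20.7% of all genes fell and 20.7% rose. Slc25a42, which brings coenzyme A into the matrix (chromosome 8, 70184340 to 70212305, minus strand), showed the lowest estimate of all carriers. It stood at 134, 159, 138 and 161 CPM in WT sham and 69.8, 68.9, 69.5 and 69.4 CPM in WT TAC. In JP2CR it was at 128, 128, 116 and 162 CPM after sham and 63.8, 64.9, 65.4 and 82.0 CPM after TAC. The WT TAC libraries were nearly equal, and the fourth library stood highest in both JP2CR groups. Slc25a42 fell by 53.1% in WT (log2 fold change -1.09 ± 0.097, adjusted p = 1.43e-07) and by 48.2% in JP2CR (-0.95 ± 0.097, adjusted p = 1.1e-06).

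Slc25a26 carries S-adenosylmethionine, the methyl donor, into the matrix. It stood at 36.1, 44.0, 41.3 and 42.0 CPM in WT sham and 27.3, 27.6, 26.6 and 26.7 CPM in WT TAC. JP2CR libraries had 39.9, 39.5, 41.3 and 39.5 CPM after sham and 26.0, 28.8, 22.8 and 28.8 CPM after TAC. The groups were apart, and Slc25a26 fell by 33.8% in WT (log2 fold change -0.60 ± 0.072, adjusted p = 4.18e-06) and by 33.6% in JP2CR (-0.59 ± 0.072, adjusted p = 6.39e-06). The gene overlaps Lrig1 on the opposite strand.

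Slc25a51, the carrier of NAD+, was at 105, 106, 100 and 108 CPM in WT sham and 93.4, 93.4, 92.3 and 91.4 CPM in WT TAC. JP2CR libraries had 108, 109, 99.9 and 100 CPM after sham and 91.8, 90.5, 92.4 and 95.9 CPM after TAC. The shift was small beside those above and larger than the spread between libraries: -0.18 ± 0.045 in log2 (adjusted p = 0.00416) in WT and -0.17 ± 0.045 (adjusted p = 0.00544) in JP2CR. The WT call was lost with the marker covariates (-0.16, adjusted p = 0.129).

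Slc25a39 and Slc25a40 both serve the import of glutathione, and their estimates had opposite signs in both genotypes. Slc25a39 stood at 116, 149, 131 and 139 CPM in WT sham and 116, 112, 119 and 114 CPM in WT TAC, and at 136, 135, 143 and 145 CPM in JP2CR sham and 110, 106, 109 and 130 CPM in JP2CR TAC. WT sham 1 lay within the TAC range. The log2 fold change of Slc25a39 was -0.22 ± 0.072 (adjusted p = 0.0201) in WT and -0.29 ± 0.072 (adjusted p = 0.0034) in JP2CR, and the WT call was lost without WT sham 2, WT sham 4 or WT TAC 2 (adjusted p 0.0505 to 0.0864) and with the marker covariates (-0.038, adjusted p = 0.842). Slc25a40 rose in WT by 0.22 ± 0.084 (adjusted p = 0.0434), a call lost when any of 8 single libraries was left out (adjusted p 0.0501 to 0.142; WT sham 2, 3 and 4, WT TAC 1, 3 and 4, JP2CR sham 1 and JP2CR TAC 4), and with the marker covariates (0.097, adjusted p = 0.674). The WT call of Slc25a40 was also lost in DESeq2 (adjusted p = 0.0858). In edgeR it was lost with no filter on low counts (0.0596) and with only the groups compared (0.0524). In JP2CR Slc25a40 had 0.077 ± 0.084 (adjusted p = 0.495). The count of Slc25a40 was 7.44 to 11.9% of that of Slc25a39 in WT sham and 12.2 to 13.2% in WT TAC, and 9.11 to 9.69% and 10.5 to 13.4% in JP2CR (exact permutation p = 0.0286 in each, adjusted 0.0572). This ratio too missed a threshold of 0.05 once adjusted.

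Slc25a36, a pyrimidine nucleotide carrier (chromosome 9, 97074961 to 97111157, minus strand), was the carrier with the highest estimate in WT. It stood at 28.1, 30.9, 36.3 and 28.1 CPM in WT sham and 42.4, 58.7, 51.6 and 53.3 CPM in WT TAC. JP2CR sham libraries had 37.1, 35.1, 23.9 and 23.8 CPM and JP2CR TAC libraries 43.1, 39, 42.5 and 34.8 CPM. WT libraries were apart, whereas JP2CR TAC 4 lay within the sham range. Slc25a36 rose by 67.1% in WT (log2 fold change 0.74 ± 0.14, adjusted p = 0.000309) and by 32.6% in JP2CR (0.41 ± 0.14, adjusted p = 0.0261). The JP2CR call was lost without JP2CR sham 3 or 4 or JP2CR TAC 1 or 3 (adjusted p 0.067 to 0.0848), and without the 3 libraries with Xist the estimate was 0.20 (adjusted p = 0.216).

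Slc25a33, the other pyrimidine nucleotide carrier, fell in WT (-0.53 ± 0.17, adjusted p = 0.0201) and had -0.19 ± 0.17 in JP2CR (adjusted p = 0.409). The WT call was lost without WT sham 1, WT TAC 2 or WT TAC 4 (adjusted p 0.066 to 0.0719) and with the marker covariates (-0.52, adjusted p = 0.21). The log2 ratio of Slc25a36 to Slc25a33 counts was higher by a mean of 1.28 after TAC in WT (exact permutation p = 0.0286, adjusted 0.0572), where it ran from 0.0571 to 0.698 in sham and from 1.1 to 2.19 in TAC libraries. In JP2CR the shift was 0.594 (exact permutation p = 0.257, adjusted 0.343), and the groups overlapped.

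Slc25a32, a carrier of folate and of flavin adenine dinucleotide, was at 10.3, 9.5, 10.7 and 11.1 CPM in WT sham and 12, 12.9, 14.5 and 13.5 CPM in WT TAC. In JP2CR it was at 8.84, 9.79, 7.83 and 7.11 CPM after sham and 11.1, 13.2, 13.3 and 13.9 CPM after TAC. Sham and TAC libraries did not overlap in either genotype. Slc25a32 rose by 26.9% in WT (log2 fold change 0.34 ± 0.1, adjusted p = 0.0127) and by 53.2% in JP2CR (0.62 ± 0.11, adjusted p = 0.000194). The WT call was lost without the 2 intermediate TAC libraries (adjusted p = 0.0568) and with the marker covariates (0.37, adjusted p = 0.135), and the JP2CR call without all 5 libraries (adjusted p = 0.0508). Slc25a16 and the peroxisomal carrier Slc25a17 were not called.

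The promoters of Slc25a20 and Slc25a42, the carriers with the 2 smallest p in WT, and of Slc25a36, which rose, are shown as RefSeq gives them for GRCm38.p6, with that of Slc25a25, the carrier with the lowest p between genotypes. Each is read 5′ to 3′ on the gene's strand from 200 bases before the start site. It ends at the first base met that lies in any annotated exon of the gene, or at the start site. The stretch of Slc25a25 runs all 200 bases to a start site inside the gene. Capitals mark 3 motifs on either strand: TGACGTCA, known for CREB and ATF factors, GGGCGG, known for Sp and Klf factors, and CCAAT, known for NF-Y. No base lies in matches of 2 motifs.
Slc25a20 (chr9:108661936-108662087, plus strand): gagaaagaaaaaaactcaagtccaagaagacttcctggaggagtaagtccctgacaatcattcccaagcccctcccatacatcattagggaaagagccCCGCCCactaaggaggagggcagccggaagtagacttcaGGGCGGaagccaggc
Slc25a42 (chr8:70212306-70212481, minus strand): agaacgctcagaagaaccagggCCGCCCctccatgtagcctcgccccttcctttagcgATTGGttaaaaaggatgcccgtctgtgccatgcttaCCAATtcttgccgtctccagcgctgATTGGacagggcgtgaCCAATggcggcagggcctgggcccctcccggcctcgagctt
Slc25a36 (chr9:97111158-97111241, minus strand): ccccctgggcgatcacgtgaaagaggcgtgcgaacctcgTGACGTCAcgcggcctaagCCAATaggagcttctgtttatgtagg
Slc25a25 (chr2:32424067-32424266, minus strand): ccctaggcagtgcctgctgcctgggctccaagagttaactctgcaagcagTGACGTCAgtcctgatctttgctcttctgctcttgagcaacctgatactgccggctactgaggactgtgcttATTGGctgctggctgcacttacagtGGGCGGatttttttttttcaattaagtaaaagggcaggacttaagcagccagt
The stretch of Slc25a42 holds 4 matches to CCAAT and 1 to GGGCGG, and that of Slc25a20 holds 2 to GGGCGG. Those of Slc25a36 and Slc25a25 each hold 1 match to TGACGTCA and 1 to CCAAT, and Slc25a25 also 1 to GGGCGG. Of the 3 promoters of Slc25a25, the promoter shown was picked because it alone holds TGACGTCA. It lies inside the span of the gene.

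Of the 47 carriers 36 had a RefSeq promoter, from 250 bases before to 50 after the start. TGACGTCA was in the promoters of 2 of them, Slc25a25 and Slc25a36, where 1.79% of all 32851 promoters and 3.51% of the tested genes held it. GGGCGG was in 30 of 36, against 68.1% of tested genes, and CCAAT in 19, against 42.3%. The estrogen-related receptor motif TNAAGGTCA was in 0 of 36, against 0.887% of tested genes. A match is a run of letters and not a measured site.

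None of the 3 tested calcium-regulated carriers of ATP-Mg and phosphate was called in WT. In JP2CR 1 was called higher, where 20.7% of all genes were. Slc25a23, the most abundant by CPM, stood at 80.4, 88.6, 77.2 and 87.7 CPM in WT sham and 93.1, 81.1, 90.7 and 87.4 CPM in WT TAC. JP2CR libraries had 80.6, 76.2, 90.4 and 80.7 CPM after sham and 81.6, 82.8, 77.2 and 76.7 CPM after TAC. The groups overlapped, with log2 differences of 0.076 ± 0.063 (adjusted p = 0.355) and -0.044 ± 0.063 (adjusted p = 0.609). Slc25a24 rose in JP2CR by 0.27 ± 0.1 (adjusted p = 0.0368), a call lost when any of 6 single libraries was left out (adjusted p 0.0563 to 0.115; JP2CR sham 1, 2 and 4 and JP2CR TAC 1, 2 and 3), and had 0.14 ± 0.1 in WT (adjusted p = 0.303).

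The iron carriers Slc25a37 (mitoferrin 1) and Slc25a28 (mitoferrin 2) had estimates below 0 in both genotypes. Slc25a37 stood at 33.8, 30.9, 30.4 and 31.1 CPM in WT sham and 26.6, 27.8, 28.7 and 26.9 CPM in WT TAC, and at 33.0, 33.7, 40.8 and 32.3 CPM in JP2CR sham and 28.1, 25.2, 26.1 and 31.1 CPM in JP2CR TAC. Its libraries did not overlap in either genotype. The estimate was -0.20 ± 0.079 in WT (adjusted p = 0.0551), and Slc25a37 fell in JP2CR (-0.34 ± 0.079, adjusted p = 0.00224). In WT the call was made when JP2CR sham 3, JP2CR sham 4 or JP2CR TAC 4, which share the estimate of the spread, was left out (adjusted p 0.0192 to 0.0478). Slc25a28 fell in WT (-0.24 ± 0.087, adjusted p = 0.0364), a call lost when any of 5 single libraries was left out (adjusted p 0.0581 to 0.125; WT sham 2 and 4 and WT TAC 2, 3 and 4) and with the marker covariates (-0.11, adjusted p = 0.628). It had -0.084 ± 0.087 in JP2CR (adjusted p = 0.472).

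No carrier related to the uncoupling proteins was called. Slc25a27 stood at 7.55, 8.88, 7.65 and 8.04 CPM in WT sham and 7.21, 7.04, 7.37 and 6.18 CPM in WT TAC, and at 9.2, 6.86, 7.15 and 6.59 CPM in JP2CR sham and 6.59, 6.94, 5.72 and 8.02 CPM in JP2CR TAC. Its log2 differences were -0.21 ± 0.13 (adjusted p = 0.19) and -0.13 ± 0.13 (adjusted p = 0.429). Slc25a46, which sits in the outer membrane and takes part in mitochondrial fission and fusion, stood at 106, 93.8, 102 and 94.3 CPM in WT sham and 82.4, 95.7, 89.0 and 104 CPM in WT TAC. JP2CR libraries had 103, 102, 79.9 and 97.4 CPM after sham and 105, 89.1, 92.7 and 88.0 CPM after TAC. The groups overlapped, with log2 differences of -0.09 ± 0.086 (adjusted p = 0.43) and -0.025 ± 0.086 (adjusted p = 0.843).

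Slc25a34 and Slc25a35, related carriers with no substrate assigned here, fell in both genotypes. Slc25a34 (chromosome 4, 141618824 to 141623821) stood at 286, 303, 276 and 310 CPM in WT sham and 189, 193, 188 and 233 CPM in WT TAC. JP2CR libraries had 263, 274, 291 and 368 CPM after sham and 202, 198, 198 and 245 CPM after TAC. The fourth library was the highest in all 4 groups, and sham and TAC did not overlap. Slc25a34 fell by 31.7% in WT (log2 fold change -0.55 ± 0.099, adjusted p = 0.000248) and by 29.3% in JP2CR (-0.50 ± 0.099, adjusted p = 0.000633).

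Slc25a35 was at 9.73, 12.4, 9.61 and 11.7 CPM in WT sham and 8.29, 5.91, 7.62 and 6.34 CPM in WT TAC. In JP2CR it was at 11.6, 9.79, 15 and 11.2 CPM after sham and 6.66, 7.5, 6.95 and 8.36 CPM after TAC. It fell by 35.5% in WT (log2 fold change -0.63 ± 0.14, adjusted p = 0.00179) and by 38.3% in JP2CR (-0.70 ± 0.14, adjusted p = 0.000839). With the marker covariates its WT estimate was -0.25 (adjusted p = 0.446). Slc25a35 overlaps Rangrf on the opposite strand. Slc25a47 fell in JP2CR (-0.62 ± 0.18, adjusted p = 0.0113), a call lost without JP2CR sham 3 (adjusted p = 0.0533) and, with an estimate of -0.29, without the 3 libraries with Xist (adjusted p = 0.324). Slc25a45 rose in JP2CR (0.31 ± 0.12, adjusted p = 0.0482), a call lost when any of 10 single libraries was left out (adjusted p 0.0503 to 0.148; WT sham 2 and 3, WT TAC 1 and 2, JP2CR sham and TAC 1, 2 and 3).

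Carriers that were not tested had too few counts. Slc25a21, Slc25a43 and Slc25a48 had at most 5, 6 and 4 counts in a library, Slc25a41 had 1 count in all, and Slc25a54 had 0 in every library. A count of 0 allows up to 3 counts, which is 0.185 to 0.314 CPM in these libraries and covers counting error only.

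**Figure D4:**
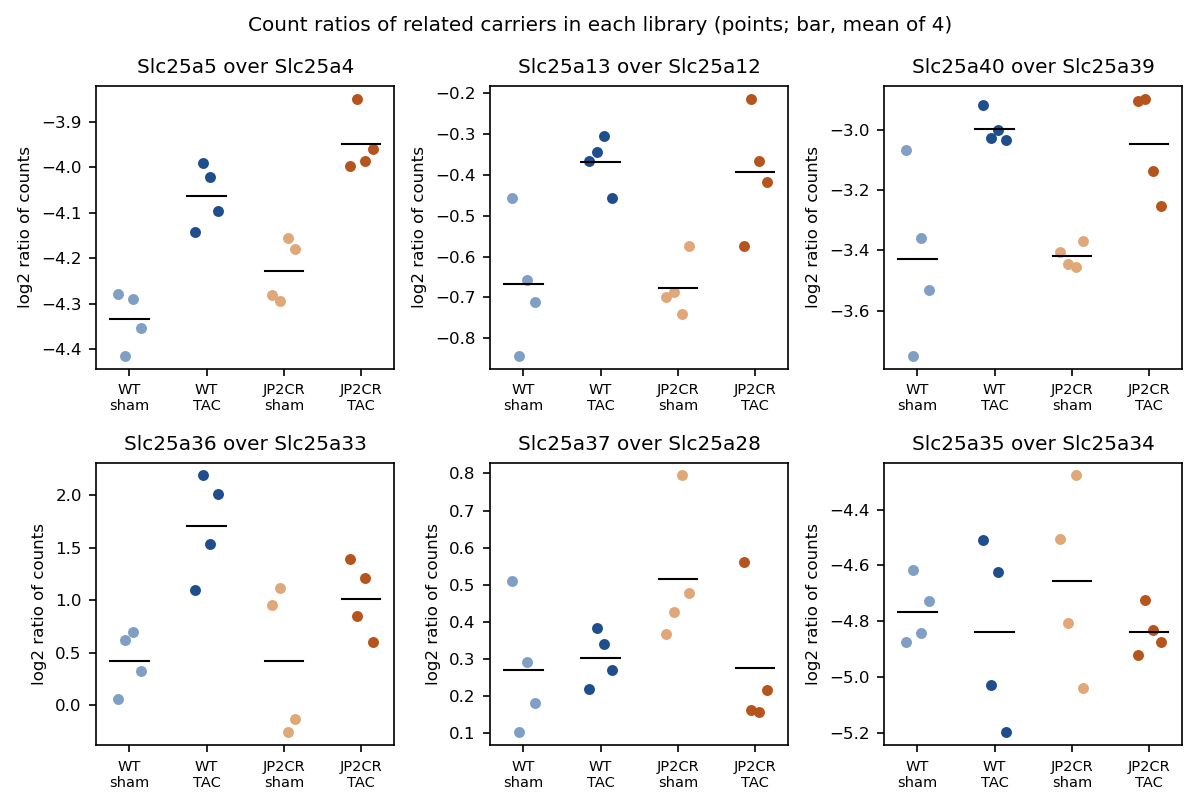
Log2 ratio of the counts of 6 pairs of related carriers in each library, with a bar at the mean of 4. For Slc25a5 over Slc25a4 and Slc25a40 over Slc25a39 every TAC library lies above every sham library of its genotype, with the exact permutation p at its smallest possible value of 0.0286 (0.0572 after Benjamini-Hochberg adjustment).

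Between genotypes edgeR called no carrier, and DESeq2 called 1, in sham hearts. The difference of the TAC effects (JP2CR minus WT) passed for 0 of 39 carriers in edgeR (background 0.0887% higher and 0.0296% lower) and for 0 in DESeq2, with 3 at an unadjusted p under 0.05 (background 10.3%), among them Slc25a1 and Slc25a20. The median of the 39 differences was 0.00498, and they ran from -0.348 to 0.831. After TAC, 0 of 39 differed between JP2CR and WT in edgeR (background 0.362% higher and 0.288% lower) and 0 in DESeq2, with 4 at an unadjusted p under 0.05 (background 12.9%). All 4 JP2CR TAC libraries lay above all 4 WT TAC libraries for 1 carrier, Slc25a24 (background 3.96%), and below them for 1 (background 4.13%). Of the 4, Slc25a36 was lower by -0.37 ± 0.13 in log2 (adjusted p = 0.233) and Slc25a24 stood higher by 0.25 ± 0.099 (adjusted p = 0.284). Slc25a23 stood at -0.15 ± 0.063.

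In sham hearts 0 of 39 carriers differed in edgeR (background 0.0% higher and 0.0961% lower), with 5 at an unadjusted p under 0.05 (background 7.97%), and 1 was lower in DESeq2. That one, Slc25a25, encodes a calcium-regulated ATP-Mg and phosphate carrier (chromosome 2, 32414487 to 32451445, minus strand, overlapping Naif1 on the other strand). It stood at 17.6, 24.0, 21.0 and 22.5 CPM in WT sham and at 10.3, 13.1, 14.3 and 12.9 CPM in JP2CR sham. After TAC it stood at 16, 19.5, 18.5 and 20.6 CPM in WT and 9.95, 19.4, 15.1 and 16.2 CPM in JP2CR. Every JP2CR sham library lay below every WT sham library, which held for 3 of 39 carriers (background 2.78%), while 0 lay wholly above (background 1.98%).

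The log2 difference of Slc25a25 in sham was -0.76 ± 0.16, with an edgeR adjusted p of 0.0768 and a DESeq2 adjusted p of 0.00279. Over the alternatives the adjusted p ran from 0.00279 to 0.29, and it passed in edgeR without JP2CR TAC 1 (0.00816), which is not one of the libraries compared. The authors' deposited table lists Slc25a25 at a log2 fold change of -0.483 with an adjusted p of 4.42e-05 in its comparison of the sham libraries, and no other carrier as significant there. For TAC the authors' deposited table called 3 carriers higher and 19 lower in WT, of which 2 and 18 were also called here, and 2 higher and 17 lower in JP2CR, all also called here. Slc25a1 was lower in JP2CR sham by -0.70 ± 0.18 (adjusted p = 0.238), a difference that passed without WT sham 1 (-0.88, adjusted p = 0.0195).

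Proteins of the SLC25 family under other symbols gave 4 lower of 5 in WT and 1 of 5 in JP2CR, where 20.8% and 20.7% of all genes were lower. Mtch2, a carrier homologue of the outer membrane, fell in both (-0.31 ± 0.05 each, adjusted p = 9.41e-05 and 0.000119). The uncoupling protein genes Ucp2 (-0.70 ± 0.16, adjusted p = 0.00224) and Ucp3 (-1.57 ± 0.38, adjusted p = 0.00314) fell in WT and had 0.12 ± 0.16 (adjusted p = 0.575) and -0.80 ± 0.37 (adjusted p = 0.0938) in JP2CR. Their TAC effects were not shown to differ (adjusted p = 0.167 and 0.673). Ucp3 stood at 40.5, 49.7, 36.1 and 124 CPM in JP2CR sham and 32.5, 19.8, 25.1 and 62.7 CPM in JP2CR TAC. The highest library of each JP2CR group had Xist, as did JP2CR sham 3, the lowest of its group. Fits of Ucp2 and Ucp3 without the libraries with Xist or with marker covariates are not given here. After TAC, Ucp2 was higher in JP2CR hearts by 0.82 ± 0.16 (adjusted p = 0.0313). Ucp1, the uncoupling protein of brown fat, was at 0.839, 42.6, 20.8 and 26.6 CPM in WT sham and at 0 in all 4 WT TAC libraries. It was at 35.5 CPM in JP2CR sham 3, 9.02 CPM in JP2CR TAC 4 and at most 0.0713 CPM in the other JP2CR libraries.

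Of 9 genes of carrier import, 2 rose and 1 fell in WT, and 1 rose and 1 fell in JP2CR, against shares of 20.7 to 21.1% of all genes in each direction. Tomm70a, the receptor that binds carriers at the outer membrane, rose in both (0.27 ± 0.067, adjusted p = 0.00324, and 0.34 ± 0.067, adjusted p = 0.000557). Agk, a subunit of the inner membrane complex that inserts carriers, fell in WT (-0.46 ± 0.082, adjusted p = 0.000212) and had -0.15 ± 0.082 in JP2CR (adjusted p = 0.151). The intermembrane chaperone Timm10 rose in WT (0.25 ± 0.076, adjusted p = 0.0139), and Timm13 fell in JP2CR (-0.29 ± 0.1, adjusted p = 0.0342).

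Of 14 genes of other solute routes into mitochondria, 11 fell and 1 rose in WT, and 10 fell and 2 rose in JP2CR, beside the same shares of all genes. In the difference of the TAC effects 1 of the 14 was called higher (background 0.0887%). In sham hearts 1 was called lower in JP2CR than in WT (background 0.0961%). Mpc2, a subunit of the pyruvate carrier, fell by 0.53 in WT and by 0.36 in JP2CR on the log2 scale (adjusted p = 1.68e-07 and 1.49e-05). The outer membrane channels Vdac1 (-0.41 and -0.30) and Vdac3 (-0.43 and -0.35) and the transporter Abcb8 (-0.40 and -0.36) fell in both as well (adjusted p 3.02e-07 to 0.000122). Among 11 enzymes that work with the carriers, 8 fell in WT and 7 in JP2CR, and 0 rose. Of all genes 20.8% and 20.7% fell, and 21.1% and 20.7% rose. Crat and Cpt2, which make and use acylcarnitines on the matrix side of Slc25a20, had log2 fold changes of -0.75 and -0.81 in WT and -0.65 and -0.57 in JP2CR (adjusted p 1.02e-08 to 1.27e-06). The malate-aspartate shuttle enzymes Mdh1 (-0.39 in both) and Got2 (-0.27 and -0.28) fell beside Slc25a11 and Slc25a12 (adjusted p 4.19e-06 to 0.000105). Ventricular muscle markers were lower too, 4 of 6 in WT and 5 of 6 in JP2CR, where 20.8% and 20.7% of all genes were lower. Their part in the carrier results was not tested.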

How the data were processed

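The values tested were raw read counts for each gene symbol, which the authors deposited without normalization for 16 libraries of ventricular polyadenylated RNA, made with a stranded kit per the labels' protocols. The deposited table also holds the authors' log2 fold changes and adjusted p-values, and other values in the sham comparison where text replaces some numbers. Per the submitters' processing notes the build was mm10 and the tools were bedtools 2.17.0, Cufflinks 2.2.1, DESeq2 1.6.3, FastQC 1.0.0, Picard 1.128 and STAR 2.5.0b. What each tool did, and the counter, its strand setting and its annotation, were not given in the sources used here.

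Counts were fitted over all 16 libraries in edgeR 4.0.16 (R 4.3.3) with filterByExpr, TMM factors, a mean per group, the quasi-likelihood F test and Benjamini-Hochberg adjustment over all 13522 genes tested. A gene was called at an adjusted p under 0.05. The SE is the log2 fold change over the square root of F. Exon lengths and coordinates came from the GENCODE annotation of GRCm38. Alternatives were DESeq2 1.42.0, limma 3.58.1 (voom), other scaling and filters, fits of only the groups compared, a replicate block, a stricter threshold and leaving out each library. Further fits were added after the data were seen: without the libraries with Xist, without the intermediate ones, without both, and with marker covariates. Carriers and lists were chosen with earlier results of these data known. Values in every library are given for the most abundant carrier of each role, those with one of the 12 smallest p in either TAC comparison, and any called between genotypes. A carrier that this rule takes is not reported here, and counts over the family include it. Other carriers were given as the text required, and of each other list the 4 genes with the smallest p. On simulated counts, for TAC in WT (13418 genes), 76.1%, 95.5% and 100% of genes changed 1.5-, 2- and 4-fold were recovered with 9 false calls. For the interaction (13404 genes) 61.2%, 82.1% and 98.5% were, with 5. In each case 67, 67 and 66 genes were changed, far fewer than were called for TAC here. No change under 1.5-fold was simulated, so these rates do not cover the smaller carrier effects. Figures were drawn with matplotlib 3.10.9.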

Additional observations from a re-analysis of the deposited data

Results flagged for a closer look

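In 7 cases 1 library of a group of 4 stood apart from the others by Dixon's criterion, which flags about 1 in 20 groups by chance; 76 groups were examined. Slc25a22 was at 98.3 CPM in JP2CR sham 4 and at 51.1 CPM in JP2CR TAC 4, each the highest of its group. Slc25a34 was at 233 CPM in WT TAC 4 and at 245 CPM in JP2CR TAC 4, and Slc25a42 at 82.0 CPM in JP2CR TAC 4, again the highest. JP2CR sham 3 had the lowest Slc25a12 of its group, at 303 CPM, and the highest Slc25a37, at 40.8 CPM. Of these 7 values, 6 belong to the 3 libraries with Xist, and what sets them apart was not tested.

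The TAC effects on Slc25a1 differed by 0.831 in log2 between JP2CR and WT, with the mean moving down in WT and up in JP2CR. The edgeR test of that difference gave an adjusted p of 0.229.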

How the results depend on the processing

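In WT the 3 higher became 1 at an adjusted p under 0.01, without the 2 intermediate TAC libraries and with marker covariates. The 18 lower became 9 with marker covariates, whose means did not overlap between WT sham and WT TAC. In JP2CR the 4 higher became 2 with DESeq2, without the 2 intermediate TAC libraries and without all 5 libraries, and 1 when only the groups compared were fitted or at an adjusted p under 0.01; leaving out 1 library gave 2 to 4. The 0 lower in JP2CR sham became 1 (Slc25a25) with DESeq2 and with no filter on low counts, and leaving out 1 library gave 0 to 1. The 18 lower stayed between 14 and 20 in WT and between 17 and 19 in JP2CR when 1 library was left out. No scaling moved the median of all genes by over 0.1.

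Estimates that changed sign were all uncalled under the alternative. In JP2CR, Slc25a23 ran from -0.078 to 0.012 when 1 library was left out (0.012 without JP2CR sham 3), and became 0.041 without the 3 libraries with Xist and 0.069 without all 5, and Slc25a33 became 0.080 and 0.096 in the last 2 fits. Slc25a46 ran from -0.099 to 0.019 in JP2CR when 1 library was left out. In WT, Slc25a13 ran from -0.12 to 0.030 (without WT sham 1), and with marker covariates Slc25a37 became 0.016 and Slc25a47 0.0012. The causes were not tested.

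Libraries of the same replicate number shared only the number: the correlations of their deviations ran from -0.187 to 0.108. With the replicate block, 3 carriers were higher and 18 lower in WT, 3 and 18 in JP2CR, and 1 was lower in JP2CR sham (Slc25a25, -0.74, adjusted p = 0.00983).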
